A study of Homo sapiens with 12 samples.

Results

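The genes described here build the contacts that seal neighbouring epithelial cells to each other. They are the 3 junctional adhesion molecules F11R (also called JAM-A), JAM2 and JAM3, the 5 claudins CLDN1, CLDN3, CLDN4, CLDN7 and CLDN12, occludin (OCLN) and the scaffold protein ZO-1 (TJP1). They were taken by gene symbol, 10 of the 26485 genes in the tables, and all 10 had enough counts to be tested. The RNA came from spheroids of DU145 cells, a widely used human prostate carcinoma line that was established from a brain metastasis, in 3 derivatives. All 3 derivatives carry a Crispr/Cas9 knockout of ITGA2, the gene of the α2 subunit of the collagen receptor integrin α2β1. DU145KO has no further transfection, DU145KO+α2 was stably transfected with the pAWneo2 vector carrying α2 integrin cDNA, and DU145KO+vector was stably transfected with the empty pAWneo2 vector. The transfected lines were kept in geneticin and DU145KO was not. Each line gave 4 biological replicates, from spheroids of 8000 cells grown for 72 hours without serum. One line of each kind was sequenced, so that the cDNA and any other difference between the lines cannot be told apart.

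Tight junctions form a belt near the apical side of epithelial cells. Claudins span the membrane and set which ions and small molecules pass between cells, occludin regulates the belt, and JAMs are immunoglobulin-like proteins that bind each other and integrins across the cleft. ZO-1 and its relatives tie these membrane proteins to the actin cytoskeleton inside the cell. Carcinoma cells often express another set of claudins than the epithelium they came from, and transcription factors of the Snail and ZEB families are known to repress several of these genes.

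The samples held 13948734 to 19988111 gene counts each. ITGA2 was measured at 259 to 332 CPM (read counts scaled to a common library size after TMM normalization) in DU145KO+α2. It was at 15.7 to 25.8 CPM in DU145KO and at 13.0 to 20.3 CPM in DU145KO+vector. DU145KO+α2 thus matched its label, while the ranges of DU145KO and DU145KO+vector overlapped and ITGA2 cannot tell these lines apart. Of the 7 epithelial markers examined, KRT5 was at or below 3 counts in each library, and the summed level of the list was 1289 to 1699 CPM in DU145KO+α2, 1778 to 2256 CPM in DU145KO and 1721 to 2000 CPM in DU145KO+vector. The luminal prostate genes KLK3 and KLK2 were at or below 3 counts throughout, as were PTPRC and CD3E of leukocytes and COL1A2, COL3A1, DCN and LUM of fibroblasts. The 8 endothelial markers summed to 3.25 to 4.35 CPM in DU145KO+α2, 3.57 to 4.51 CPM in DU145KO and 1.496 to 3.38 CPM in DU145KO+vector. In the text, a gene passed the test when its adjusted p (edgeR's quasi-likelihood test, Benjamini-Hochberg over 14732 genes) was below 0.05, and was differentially expressed (DE) when it also changed by more than 2-fold. Log2 fold changes are given with their SE. In bulk RNA, fewer cells expressing a gene and less RNA per cell cannot be told apart.

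The junction genes differed widely in level. On the length-corrected RPKM scale, which allows genes to be compared, F11R had a median of 99.8 in DU145KO, CLDN4 86.7 and CLDN3 72.8, and the ranges of neighbours in this order overlapped. CLDN12 followed at 36.0 RPKM, and OCLN, CLDN7, TJP1 and CLDN1 lay between 14.2 and 9.70 RPKM. JAM3 was at 2.62 RPKM and JAM2 at 0.155 RPKM, each below the range of the gene before it. The order was not the same in the other lines. In DU145KO+α2, CLDN3 (92.4 RPKM), CLDN4 (91.3 RPKM) and F11R (83.5 RPKM) came first with overlapping ranges, and JAM3 (5.13 RPKM) overlapped with CLDN7 (4.40 RPKM). In DU145KO+vector, F11R (84.8 RPKM) and CLDN3 (81.1 RPKM) overlapped, and CLDN4 (45.3 RPKM) fell to a range that overlapped with CLDN12 (35.5 RPKM). The place of CLDN4 depends on the gene length. With the exon length of the GENCODE annotation, a choice made after the data were seen, its median in DU145KO was 34.0 RPKM, below that of CLDN3 at 73.3 RPKM. The length behind the authors' values was 1843 bases for CLDN4 and the annotated one 4699 bases. TJP1 moved the other way, from 11.5 to 17.5 RPKM, with 17223 bases in the authors' values and 11315 bases in the annotation.

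**Figure D1:**
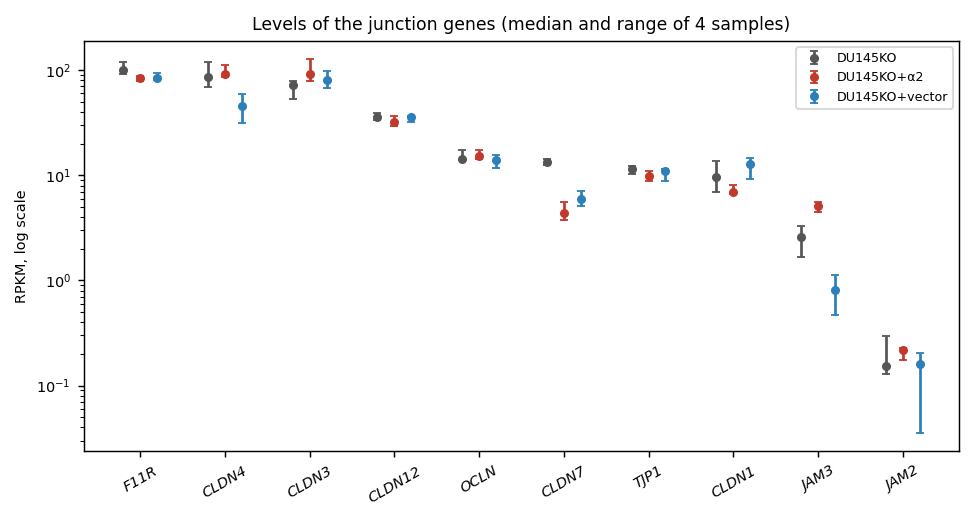
Level of each junction gene in RPKM on a log axis, by line, as the median (point) and the lowest and highest (bars) of 4 samples. F11R, CLDN3 and CLDN4 lie highest, JAM2 lies lowest in each line, and JAM3, CLDN4 and CLDN7 shift most between lines.

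JAM3 had the largest fold change of the 10 genes between DU145KO+α2 and DU145KO+vector. JAM3 encodes JAM-C, an adhesion molecule known from endothelial and epithelial contacts, at chr11:134069071-134152001 on the plus strand of GRCh38. It was at 16.1, 20.4, 17.7 and 20.2 CPM in the replicates of DU145KO+α2, at 12.04, 10.2, 9.28 and 6.15 CPM in DU145KO and at 4.05, 4.09, 1.96 and 1.72 CPM in DU145KO+vector. The lines formed 3 separate ranges, with DU145KO+α2 highest and DU145KO+vector lowest. JAM3 was 6.28-fold higher in DU145KO+α2 than in DU145KO+vector (log2 fold change 2.65 ± 0.26, adjusted p = 3.13e-05) and was DE. Compared with DU145KO it was higher in DU145KO+α2 by a log2 fold change of 0.98 ± 0.23 (adjusted p = 0.0159), just under 2-fold. With the replicate number as a block the value was 1.01 (adjusted p = 0.00644), which made it DE, as did leaving out DU145KO replicate 1 (1.14) or 2 (1.03) or DU145KO+α2 replicate 1 (1.05) or 3 (1.02). DU145KO+vector was lower than DU145KO, with a log2 fold change of -1.67 ± 0.26 (adjusted p = 0.00397), so that the lines without the α2 cDNA also differed from each other in JAM3. The comparisons share samples and are not independent. KDR, an endothelial receptor tyrosine kinase, was also higher in DU145KO+α2 (1.799 to 2.98 CPM) than in DU145KO+vector (0.575 to 1.29 CPM; 1.14 ± 0.29, adjusted p = 0.0183), and lay at 1.41 to 2.93 CPM in DU145KO, where the difference from DU145KO+α2 was 0.05 ± 0.27 (adjusted p = 0.943). Of the other endothelial markers, PECAM1 had 8 to 22 counts and ESAM 5 to 17 counts per sample, VWF and CLDN5 had at most 4 and 6 counts, and TEK, TIE1 and ERG were at or below 3 counts. Their part in the JAM3 values was not tested.

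**Figure D2:**
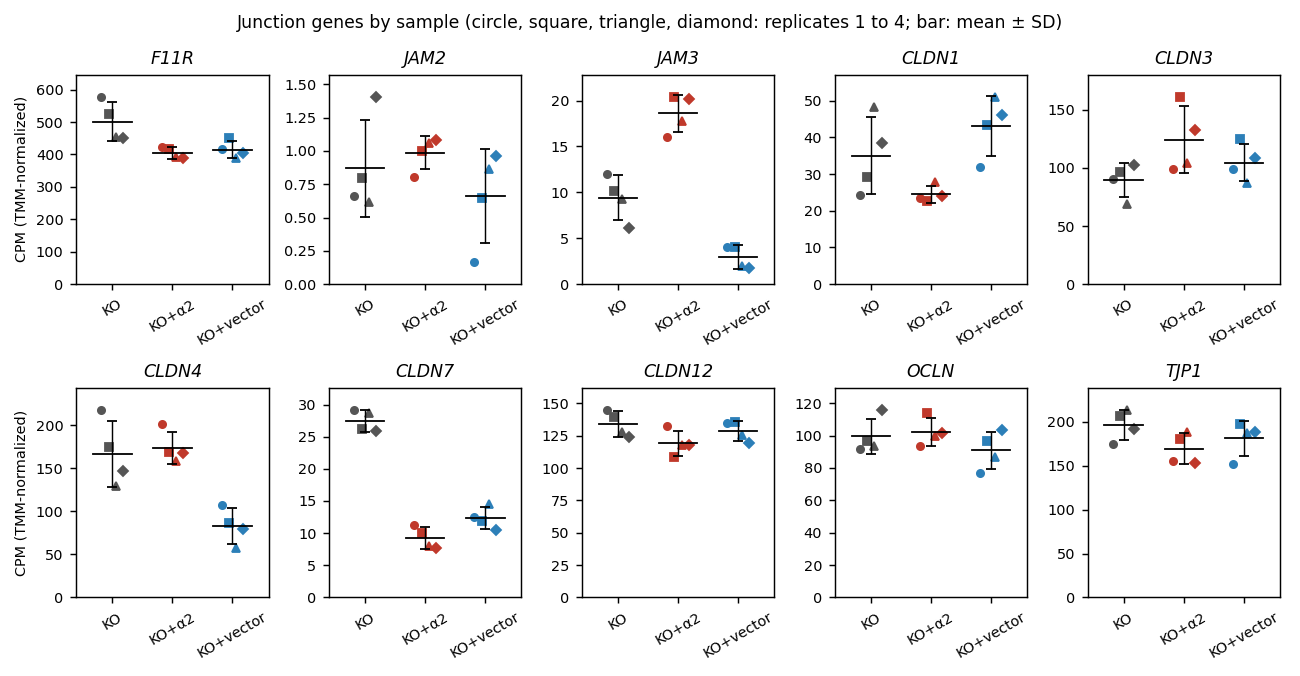
TMM-normalized CPM of each junction gene in every sample, with replicates 1 to 4 as circle, square, triangle and diamond and the mean ± SD of 4 samples as bars; the vertical axes start at 0 and differ between genes. JAM3 separates the 3 lines, CLDN4 is low in DU145KO+vector and CLDN7 is high in DU145KO.

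Of the exon bases of JAM3, 1889 (35.6%) overlap exons of NCAPD3, a condensin subunit gene on the opposite strand. The library kit keeps strand, but whether the counting used it is not given in the sources used here, so reads of both genes cannot be told apart in that stretch. NCAPD3 had 847 to 1415 counts and its groups overlapped in each comparison, with log2 fold changes of -0.04 ± 0.11 (adjusted p = 0.885), 0.10 ± 0.11 (adjusted p = 0.683) and 0.14 ± 0.11 (adjusted p = 0.633) for DU145KO+α2 against DU145KO+vector, DU145KO+α2 against DU145KO and DU145KO+vector against DU145KO. DU145KO+α2 had 259 to 408 JAM3 counts, or 26.5 to 30.3 JAM3 counts per 100 NCAPD3 counts. The ratio was 8.72 to 21.5 in DU145KO and 2.12 to 7.21 in DU145KO+vector, lowest in replicate 4 with 25 JAM3 counts. The ratio does not measure reads shared by the genes, and the part of such reads in the JAM3 values was not tested.

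**Figure D3:**
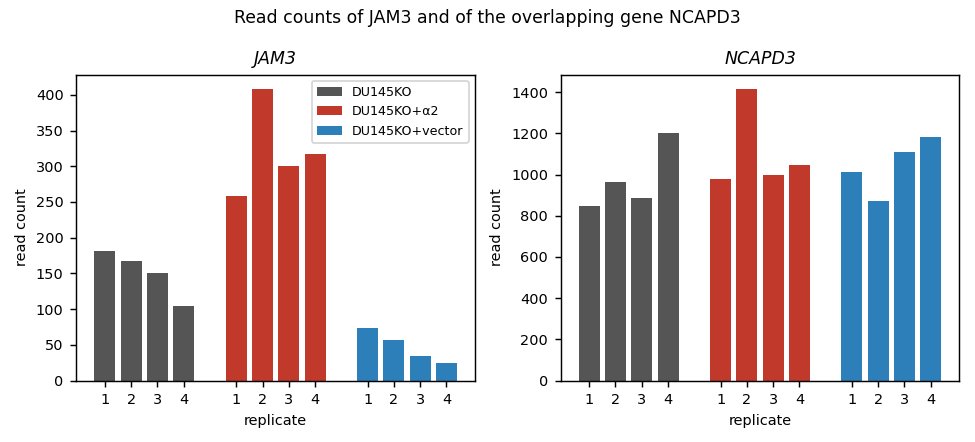
Read counts of JAM3 (left) and NCAPD3 (right) in each of the 12 samples, not normalized, with bars starting at 0. JAM3 has 259 to 408 counts in DU145KO+α2 and 25 to 73 in DU145KO+vector, while NCAPD3 lies between 847 and 1415 in all lines.

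The genes whose pattern lay closest to JAM3 over the 12 samples were STC1 (0.272), IGF2BP1 (0.277), CEMIP (0.414), SARM1 (0.419) and IFITM2 (0.435). The values are root mean square distances of centred log2 CPM, among 12850 tested genes above a minimum average level. For scale, JAM3 itself had an SD of 1.23 on the log2 scale. STC1, a secreted glycoprotein, was at 11.3 to 20.2 CPM in DU145KO+α2, 5.74 to 8.07 CPM in DU145KO and 1.03 to 4.10 CPM in DU145KO+vector. IGF2BP1, an RNA-binding protein, was at 8.32 to 11.3 CPM, 4.68 to 6.05 CPM and 0.964 to 2.66 CPM. Both showed 3 separate ranges in the same order as JAM3. They were picked for closeness to JAM3 in these same samples, so the shared order only describes the choice. The regional log2 fold change, taken as the median of the 25 nearest tested genes of JAM3 (5 of them on the side of the chromosome end), was between -0.08 and -0.02 in the 3 comparisons.

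F11R and JAM2 gave smaller fold changes than JAM3, though the difference between the genes was not tested. F11R, on chr1:160995211-161021343 (minus strand), encodes JAM-A, the JAM of most epithelia, and held a median of 98.9% of the summed JAM RPKM in DU145KO+vector, 97.3% in DU145KO and 93.9% in DU145KO+α2. The share of JAM3 was 0.917%, 2.56% and 5.82%, and that of JAM2 was at most 0.316% in any sample. F11R was at 577, 524, 455 and 450 CPM in DU145KO, at 424, 418, 391 and 388 CPM in DU145KO+α2 and at 416, 451, 389 and 403 CPM in DU145KO+vector. It was lower in DU145KO+α2 than in DU145KO, without overlap, by a log2 fold change of -0.31 ± 0.09 (adjusted p = 0.0385). This call was lost in 8 of the 12 fits that left out a sample, and held without DU145KO replicate 3 or 4 or DU145KO+vector replicate 2 or 3. The adjusted p was highest, 0.152, without DU145KO replicate 1. DU145KO+vector against DU145KO gave -0.27 ± 0.09 (adjusted p = 0.126), which passed with the replicate block (adjusted p = 0.00292), and DU145KO+α2 against DU145KO+vector gave -0.03 ± 0.09 (adjusted p = 0.862). Another annotated gene on the same strand, which is not in the tables, shares 36.6% of the exon bases of F11R. JAM2, on chr21:25639258-25717562 (plus strand), encodes JAM-B, a binding partner of JAM-C, and had 3 to 24 counts per sample. Its groups overlapped in each comparison, and its log2 fold changes of 0.60 ± 0.40 (adjusted p = 0.386), 0.17 ± 0.38 (adjusted p = 0.857) and -0.43 ± 0.41 (adjusted p = 0.697), in the order given for NCAPD3, show that a change was not detectable at this depth.

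Among the claudins, CLDN3 and CLDN4 lie close to each other on chromosome 7, 29272 bases apart and on opposite strands. CLDN3 occupies chr7:73768997-73770270 (minus strand) and CLDN4 chr7:73799542-73832690 (plus strand). The distance is between these full GENCODE spans. The RefSeq start of CLDN4 used below lies inside its span, so that start is farther from CLDN3. RefSeq start sites were given for 7 of the 10 genes, with 12 windows of 250 bases before a start, in GRCh38.p14. The last 30 bases before the start are shown for the claudins that passed the test in any comparison and for the neighbour CLDN3, from 5′ to 3′ on the strand of the gene, with the E-box CAGGTG, or its reverse complement CACCTG, in capitals. This E-box is the known binding sequence of Snail and ZEB repressors.
CLDN1, chr3:190322447-190322476: gctttaaatcgcggcgcccagcggttctgc
CLDN3, chr7:73770271-73770300: gctaagacgcaccggccccagcccagggcc
CLDN4, chr7:73830966-73830995: ccatataactgctcaacctgtccccgagag
CLDN7, upstream start, chr17:7263214-7263243: tcaccctgctccccaccctcggccggcttt
CLDN7, downstream start, chr17:7262479-7262508: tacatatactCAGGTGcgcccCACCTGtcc
Of these 5 runs, the one at the downstream start of CLDN7 holds the E-box, once on each strand. Its whole window of 250 bases holds 4 on both strands together. Of the 35116 windows before RefSeq starts, 43 (0.122%) hold 4 or more, while 17.5% hold at least 1. Of the other 11 windows, both of OCLN and 1 of the 4 of TJP1 hold a single E-box, though neither gene passed in any comparison. None was found in the windows of CLDN1, CLDN3, CLDN4, CLDN12, the upstream start of CLDN7 and the other starts of TJP1. All 250 bases of the window at the downstream start of CLDN7 lie in annotated exons, as do those of the CLDN4 window. The window at the upstream start of CLDN7 holds 0 such bases. Which start the cells used was not tested. A match describes these letters and no binding was measured.

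CLDN4 was lower in DU145KO+vector than in both other lines, and its neighbour CLDN3 did not pass in any comparison. CLDN4, a claudin that tightens the junction against sodium, was at 217, 174, 129 and 147 CPM in DU145KO, at 201, 168, 158 and 167 CPM in DU145KO+α2 and at 107, 86.5, 57.7 and 79.8 CPM in DU145KO+vector. Every sample of DU145KO+vector lay below all samples of the other lines, which overlapped. CLDN4 was 2.096-fold higher in DU145KO+α2 than in DU145KO+vector (log2 fold change 1.07 ± 0.19, adjusted p = 0.00279), and 2.01-fold lower in DU145KO+vector than in DU145KO (log2 fold change -1.01 ± 0.19, adjusted p = 0.0146). Both values lie at the edge of the 2-fold threshold. The first fell below it without DU145KO+vector replicate 3 (0.93) or DU145KO+α2 replicate 1 (0.99), and the second without DU145KO replicate 1 (-0.85) or 2 (-0.99) or DU145KO+vector replicate 3 (-0.87) or 4 (-0.99, adjusted p = 0.0536). The second also lost the call when the 2 lines were fitted alone (adjusted p = 0.0656). DU145KO+α2 against DU145KO gave 0.06 ± 0.18 (adjusted p = 0.905), and the sign turned without DU145KO replicate 3 (-0.05) or DU145KO+α2 replicate 1 (-0.02).

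CLDN3, which also tightens the junction, was at 90.0, 96.8, 68.8 and 102 CPM in DU145KO, at 99.1, 161, 104 and 133 CPM in DU145KO+α2 and at 98.7, 125, 86.9 and 108 CPM in DU145KO+vector. The ranges overlapped in each comparison. DU145KO+α2 against DU145KO gave a log2 fold change of 0.47 ± 0.17 (adjusted p = 0.107) and DU145KO+α2 against DU145KO+vector 0.25 ± 0.17 (adjusted p = 0.395). Both passed with the replicate block (adjusted p = 0.000195 and 0.0219). DU145KO+vector against DU145KO gave 0.22 ± 0.17 (adjusted p = 0.599). The log2 ratio of CLDN4 to CLDN3 counts was 0.52 to 1.27 in DU145KO, 0.06 to 1.02 in DU145KO+α2 and -0.59 to 0.12 in DU145KO+vector. The median log2 fold change of the 40 nearest tested genes was between 0.01 and 0.06 for both claudins in all comparisons.

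CLDN7 was lower in both transfected lines than in DU145KO. CLDN7, on chr17:7259903-7263983 (minus strand), encodes a claudin found along the lateral membrane, where it binds EpCAM. It was at 29.1, 26.3, 28.7 and 25.8 CPM in DU145KO, at 11.3, 9.99, 8.03 and 7.70 CPM in DU145KO+α2 and at 12.6, 11.9, 14.6 and 10.5 CPM in DU145KO+vector. DU145KO lay above all samples of the transfected lines. Relative to DU145KO, CLDN7 was 2.96-fold lower in DU145KO+α2 (log2 fold change -1.57 ± 0.13, adjusted p = 2.67e-06) and 2.21-fold lower in DU145KO+vector (-1.14 ± 0.13, adjusted p = 0.000176), and was DE in both. The lower level of DU145KO+α2 against DU145KO+vector, -0.42 ± 0.13 with overlapping ranges, passed narrowly (adjusted p = 0.0486). That call was lost in 10 of the 12 fits that left out a sample, and held without DU145KO+vector replicate 4 or DU145KO+α2 replicate 1. The adjusted p was highest, 0.164, without DU145KO+vector replicate 3. EPCAM was at 140 to 186 CPM in DU145KO, 57.3 to 88.4 CPM in DU145KO+α2 and 82.2 to 93.7 CPM in DU145KO+vector, and was lower than in DU145KO in both transfected lines (-1.14 ± 0.11, adjusted p = 1.86e-05, and -0.83 ± 0.11, adjusted p = 0.00093). An annotated gene on the same strand, which is not in the tables, shares 269 exon bases (10.8%) with CLDN7. ELP5 shares 38 exon bases (1.52%) with CLDN7 on the opposite strand and had adjusted p values of 0.163 to 0.625.

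CLDN1 was lower with the α2 cDNA than with the empty vector. CLDN1, on chr3:190305707-190322446 (minus strand), is a sealing claudin of many epithelia. It was at 24.2, 29.3, 48.3 and 38.4 CPM in DU145KO, at 23.4, 22.6, 27.9 and 23.9 CPM in DU145KO+α2 and at 31.9, 43.5, 51.0 and 46.0 CPM in DU145KO+vector. The samples of DU145KO+α2 all lay below those of DU145KO+vector, while DU145KO overlapped with both. The difference was 1.76-fold (log2 fold change -0.82 ± 0.19, adjusted p = 0.0150). DU145KO+α2 against DU145KO gave -0.52 ± 0.19 (adjusted p = 0.134), which passed with the replicate block (adjusted p = 0.00217) and without DU145KO replicate 1 (adjusted p = 0.0341). DU145KO+vector against DU145KO gave 0.30 ± 0.19 (adjusted p = 0.526, and 0.0424 with the block).

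CLDN12, on chr7:90383721-90513402 (plus strand), lacks the PDZ-binding tail by which other claudins bind ZO proteins. It was at 124 to 145 CPM in DU145KO, 109 to 132 CPM in DU145KO+α2 and 120 to 136 CPM in DU145KO+vector, with overlap in each comparison. Its log2 fold change in DU145KO+α2 against DU145KO was -0.17 ± 0.08 (adjusted p = 0.212, and 0.0302 with the block), and the other comparisons gave -0.11 ± 0.08 (adjusted p = 0.405) against DU145KO+vector and -0.06 ± 0.08 (adjusted p = 0.804) for DU145KO+vector against DU145KO. CLDN12 shares exon bases on its own strand with GTPBP10 (347 bases) and CDK14 (201 bases), whose adjusted p values were 0.191 or above, and with a pair of annotated genes that are not in the tables (531 and 371 bases). CDK14 passed with the block in both comparisons of DU145KO+α2, as higher (adjusted p = 0.036 and 0.0489). Within the summed RPKM of the 5 claudins, the median share of CLDN4 was 39.5% in both DU145KO and DU145KO+α2 and 23.9% in DU145KO+vector. The share of CLDN3 was 30.9%, 41.1% and 45.5% for DU145KO, DU145KO+α2 and DU145KO+vector, and that of CLDN7 was 5.75%, 1.87% and 3.09%. These shares rest on the authors' gene lengths.

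OCLN and TJP1, the membrane protein and the scaffold that mark the belt, did not pass in any comparison. OCLN, on chr5:69492292-69558104 (plus strand), was at 92.0 to 116 CPM in DU145KO, 93.3 to 114 CPM in DU145KO+α2 and 77.0 to 104 CPM in DU145KO+vector. Its log2 fold changes were 0.17 ± 0.10 (adjusted p = 0.319, and 0.0375 with the block) for DU145KO+α2 against DU145KO+vector, 0.04 ± 0.10 (adjusted p = 0.884) for DU145KO+α2 against DU145KO and -0.13 ± 0.10 (adjusted p = 0.603) for DU145KO+vector against DU145KO. The second turned sign without DU145KO+α2 replicate 2 (-0.02). A partial copy of OCLN in the tables had 1 to 8 counts per sample. The 40 nearest tested genes of OCLN had a median log2 fold change of -0.21 in DU145KO+α2 against DU145KO. TJP1, on chr15:29699367-29968915 (minus strand), was at 174 to 213 CPM in DU145KO, 153 to 188 CPM in DU145KO+α2 and 152 to 198 CPM in DU145KO+vector. It gave -0.21 ± 0.10 in DU145KO+α2 against DU145KO (adjusted p = 0.207, and 0.0063 with the block), -0.10 ± 0.10 against DU145KO+vector (adjusted p = 0.600) and -0.12 ± 0.10 in DU145KO+vector against DU145KO (adjusted p = 0.637).

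**Figure D4:**
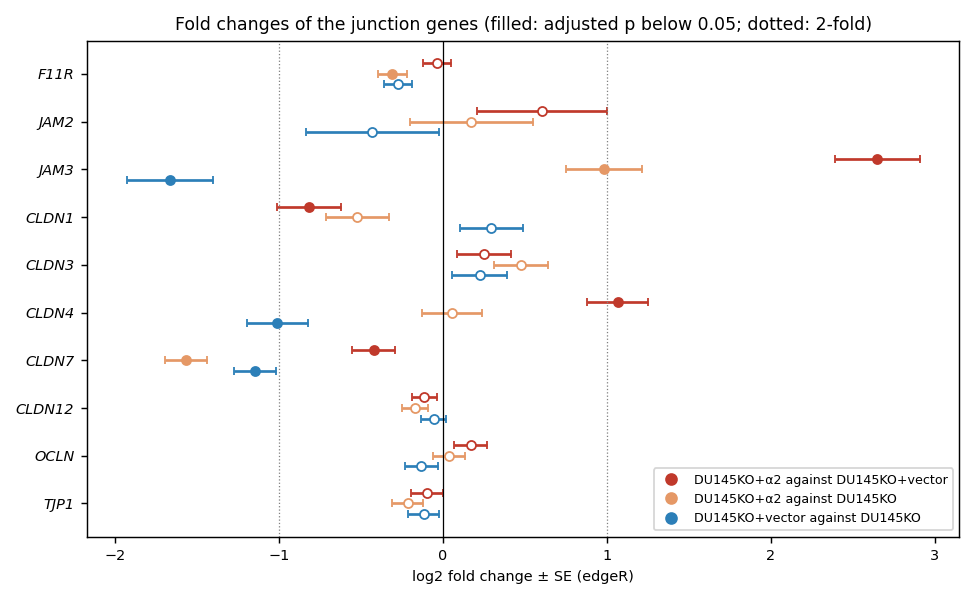
Log2 fold change ± SE of each junction gene in the 3 comparisons (edgeR, 4 samples per line); filled points passed at an adjusted p below 0.05 and dotted lines mark 2-fold. JAM3 spans from -1.67 to 2.65, CLDN4 and CLDN7 pass beyond 2-fold in 2 comparisons each, and OCLN, TJP1 and CLDN12 stay near 0.

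Counted over the 10 genes, DU145KO+α2 against DU145KO+vector had 2 that passed as higher (JAM3 and CLDN4), where 5.96% of all genes tested did, and 2 as lower (CLDN1 and CLDN7), where 5.95% did. JAM3 and CLDN4 were DE, against 2.21% of all genes. The replicate block gave 6 genes that passed, against 26.5%, and 2 DE, against 2.68%. DU145KO+α2 against DU145KO had 1 higher (JAM3), against 3.09%, and 2 lower (CLDN7 and F11R), against 5.08%, with CLDN7 alone DE, against 2.1%. With the replicate block JAM3 and CLDN7 were DE, against 2.56% of all genes, and 7 genes passed, against 22.3%. DU145KO+vector against DU145KO had 3 lower (JAM3, CLDN4 and CLDN7), against 1.84%, each of them DE, against 0.835%, and the block let 5 pass, against 13.4% of all genes, with 3 DE, against 1.48%. No gene of the 10 passed as higher in this comparison, where 0.496% of all genes did. The median log2 fold change of the 10 genes was 0.07, -0.07 and -0.20, beside -0.0062, -0.0031 and -0.0011 over all genes tested. The genes were chosen with earlier results of these data known, so these counts describe them only.

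Of 58 other tight junction genes, 41 could be tested, among them 5 claudins, 8 other membrane proteins and 28 cytoplasmic proteins. In DU145KO+α2 against DU145KO+vector 2 passed as higher and 5 as lower, where 5.96% and 5.95% of all genes did. In DU145KO+α2 against DU145KO 1 passed as higher and 8 as lower, against 3.09% and 5.08%, and in DU145KO+vector against DU145KO 4 passed as lower, against 1.84%. The list's median log2 fold change was 0.05, -0.08 and -0.14. With the replicate block 16, 13 and 8 genes of the list passed, and over all genes the shares were 26.5%, 22.3% and 13.4%. TJP3, which encodes ZO-3, was at 8.57 to 15.7 CPM in DU145KO+α2, 24.2 to 31.6 CPM in DU145KO and 20.6 to 24.7 CPM in DU145KO+vector. TJP3 was lower in DU145KO+α2 than in DU145KO (-1.17 ± 0.15, adjusted p = 0.000151) and than in DU145KO+vector (-0.95 ± 0.15, adjusted p = 0.000625), without overlap. TJP1 did not pass in the same comparisons, though the difference between TJP1 and TJP3 was not tested. Cingulin (CGN), a cytoplasmic partner of ZO proteins named after its values were seen, passed as lower in DU145KO+α2 against DU145KO+vector (-0.65 ± 0.13, adjusted p = 0.00332) and against DU145KO (-0.79 ± 0.13, adjusted p = 0.00108).

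**Figure D5:**
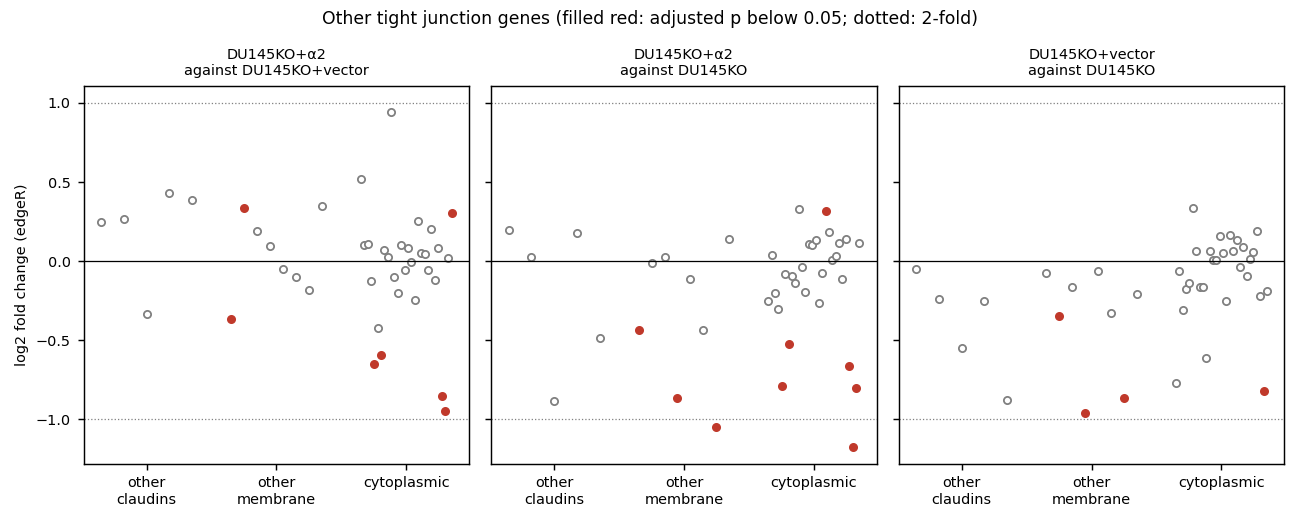
Log2 fold change of the 41 other tight junction genes tested, in 3 comparisons, split into other claudins, other membrane proteins and cytoplasmic proteins; filled red points passed at an adjusted p below 0.05. In both comparisons of DU145KO+α2, most of the genes that passed lie below 0.

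In DU145KO+vector against DU145KO the 4 genes that passed, named after their values were seen, were MARVELD3, ILDR1, CXADR and WWC1. MARVELD3, a relative of occludin, was at 9.53 to 11.9 CPM in DU145KO, 4.85 to 5.65 CPM in DU145KO+α2 and 4.96 to 7.23 CPM in DU145KO+vector. It was lower than in DU145KO by -1.05 ± 0.14 in DU145KO+α2 (adjusted p = 0.000197) and by -0.86 ± 0.14 in DU145KO+vector (adjusted p = 0.00295). MLLT4 (afadin) and PRKCI (atypical protein kinase C), among the most abundant of the other genes on the list, did not pass, with adjusted p values of at least 0.542 and 0.805. MLLT4 passed with the block in both comparisons of DU145KO+α2, as lower (adjusted p = 0.0139 and 0.0299). Of 19 other claudins 5 could be tested, and edgeR called 0 of them in each comparison, with the lowest adjusted p values at 0.112, 0.303 and 0.279. At an unadjusted p below 0.05 there were 2, 0 and 2, DESeq2 and limma also passed 0, and the block passed 2, 1 and 0. The 14 claudins not tested had at most 8 counts in any sample.

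Several regulators of junction genes differed between DU145KO and the transfected lines, and others did not pass. SNAI1 and SNAI2 of the Snail family, named in addition, did not pass in any comparison, with or without the replicate block. Their adjusted p values without the block were at least 0.726 for SNAI1 and 0.458 for SNAI2. ESRP1, a splicing regulator of epithelial cells, was at 4.33 to 6.21 CPM in DU145KO, 0.295 to 0.559 CPM in DU145KO+α2 and 0.388 to 0.805 CPM in DU145KO+vector. It was lower than in DU145KO by -3.65 ± 0.26 in DU145KO+α2 (adjusted p = 6.57e-07) and by -3.00 ± 0.24 in DU145KO+vector (adjusted p = 1.21e-05). OVOL2, a repressor of ZEB1, was lower by -1.97 ± 0.35 (adjusted p = 0.00231) and -1.72 ± 0.35 (adjusted p = 0.0146) at levels of at most 1.23 CPM. ZEB2 was at 0.369 to 0.860 CPM in DU145KO and 1.09 to 2.62 CPM in DU145KO+vector, higher by 1.58 ± 0.38 (adjusted p = 0.0382). In DU145KO+α2 it was at 0.750 to 1.91 CPM and gave 1.05 ± 0.39 (adjusted p = 0.122, and 0.0279 with the block). ZEB1, the more abundant of the pair, had mean levels of 27.2 (DU145KO+α2), 24.4 (DU145KO+vector) and 20.2 CPM (DU145KO) with overlapping ranges and did not pass in DU145KO+α2 against DU145KO (0.43 ± 0.17, adjusted p = 0.163, and 0.000438 with the block). ELF3, an epithelial transcription factor, was lower in both transfected lines (-0.40 ± 0.08, adjusted p = 0.00386, and -0.34 ± 0.08, adjusted p = 0.0308). Of the 11 regulators tested, 3 passed as lower in DU145KO+α2 against DU145KO, against 5.08% of all genes, and 3 passed as lower and 1 as higher in DU145KO+vector against DU145KO, against 1.84% and 0.496%. In DU145KO+α2 against DU145KO+vector edgeR called 0, as did DESeq2 and limma, with 1 at an unadjusted p below 0.05 and 1 with the block. With the replicate block 8 regulators passed in DU145KO+α2 against DU145KO, against 22.3% of all genes. In DU145KO+vector against DU145KO the block let 6 pass, against 13.4%. The part of the regulators in the claudin values was not tested.

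Of the 7 integrin subunits known to pair with or bind JAMs, 5 could be tested. ITGB1, the partner of α2, was at 3655 to 5384 CPM in DU145KO+α2, 3339 to 4299 CPM in DU145KO and 2899 to 3729 CPM in DU145KO+vector. It was higher in DU145KO+α2 than in DU145KO+vector by 0.52 ± 0.13 (adjusted p = 0.0123) with overlapping ranges. DU145KO+α2 against DU145KO gave 0.29 ± 0.13 and did not pass (adjusted p = 0.191, and 0.00214 with the block). DU145KO+vector against DU145KO gave -0.23 ± 0.13 (adjusted p = 0.422, and 0.0169 with the block). ITGB2, the β2 subunit of leukocyte integrins, was at 16.7 to 18.9 CPM in DU145KO+α2, 27.1 to 40.6 CPM in DU145KO and 24.9 to 35.1 CPM in DU145KO+vector. ITGB2 passed as lower in DU145KO+α2 against DU145KO (-1.03 ± 0.13, adjusted p = 0.000156) and against DU145KO+vector (-0.85 ± 0.13, adjusted p = 0.000568). ITGAV was lower in DU145KO+α2 than in either line (-0.30 against DU145KO+vector, adjusted p = 0.00408, and -0.29 against DU145KO, adjusted p = 0.00615), and ITGB3 did not pass (adjusted p of at least 0.764). CDH1, the adhesion protein of the neighbouring adherens junction, was at 118 to 161 CPM in DU145KO, 46.8 to 74.7 CPM in DU145KO+α2 and 83.4 to 116 CPM in DU145KO+vector. CDH1 passed as lower in DU145KO+α2, by -1.13 ± 0.16 against DU145KO (adjusted p = 0.00054) and by -0.70 ± 0.16 against DU145KO+vector (adjusted p = 0.00981).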

How the data were processed

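Stranded mRNA libraries of 12 spheroid samples were sequenced as single-end reads in 2 lanes. The authors aligned the reads to hg38 with TopHat 2.1.0 and counted uniquely aligned reads per gene with Subread 1.5.0. The read counts were deposited without normalization and were used for all tests. The authors also deposited RPKM values, made after TMM normalization, which were used only for levels between genes and depend on the authors' gene lengths. The lanes of the samples and the strand setting of the counting are not given in the sources used here.

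The tests used edgeR 4.0.16 under R 4.3.3 (filterByExpr with a minimum count of 10, TMM, robust quasi-likelihood F-test, two-sided), with all 12 samples in one model and p-values adjusted over 14732 genes. DESeq2 1.42.0 and voom with limma 3.58.1 were alternatives, as were other scalings and filters, a fit of the compared lines alone, a replicate block, and fits that left out samples in turn. Deviations from the line's mean had correlations of 0.135 to 0.554 in the 12 pairs with the same replicate number (mean 0.378). Pairs with different numbers gave -0.290 to 0.149 (mean -0.126), so the ranges overlapped at the edge. Centring on the line's mean by itself lowers the values for different numbers, so their mean is no independent reference. The numbers come from the labels, and whether they pair all samples is not settled. The main tests held no replicate term. Values from the fit with the replicate block are given where it changed a call of the 10 genes. For the other genes only some of these changes are given. Scripts were tested on simulated data.

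The genes described and the lists of other genes were chosen with earlier results of these data known. Named from the lists were DE genes and the 3 most abundant others, of which KLF5 and markers that touch no result are not detailed and a few genes are not reported here, and genes sharing exons with a described gene. Exact permutation tests of single values were not needed, since all 10 genes passed the filter. Positions come from GENCODE for GRCh38, and start sites from RefSeq (GRCh38.p14), which gave none for F11R, JAM2 and JAM3. Motifs were searched on both strands. The protein experiments were not analysed here.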

Additional observations from a re-analysis of the deposited data

How the results depend on the processing

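Over 30 fold changes of the junction genes, 219 of 237 values under another scaling, filter, test or model kept their direction and their side of an adjusted p of 0.05, 9 lost the call, 9 gained it and 0 reversed. The lost calls were CLDN7 in DU145KO+α2 against DU145KO+vector (5 settings, adjusted p 0.0517 to 0.081), F11R in DU145KO+α2 against DU145KO (3 settings, adjusted p 0.051 to 0.0903) and CLDN4 in DU145KO+vector against DU145KO with the 2 lines alone (adjusted p = 0.0656). Of the gained calls, 8 came with the replicate block and are given in the report, and CLDN3 in DU145KO+α2 against DU145KO passed in DESeq2 (adjusted p = 0.0338). The block changed no other call of the 10 genes. The number of DE genes among the 10 in DU145KO+α2 against DU145KO rose from 1 to 2 with the block and with voom and limma. At an adjusted p alone it was 4, 3 and 3 in the comparisons as ordered in the report. Leaving out each sample gave 1 to 2, 1 to 2 and 2 to 3 DE genes. For the 58 other tight junction genes, of which 0, 2 and 0 were DE, an adjusted p alone gave 7, 9 and 4. Leaving out each sample gave 0 to 1, 1 to 3 and 0 to 2, and without a filter on low counts 1 (ILDR2) was DE in DU145KO+vector against DU145KO. Among 360 leave-one-out values 336 kept their direction and call, 19 lost the call, 1 gained it and 4 reversed, all 4 of calls not past the threshold. The reversed ones were F11R in DU145KO+α2 against DU145KO+vector without DU145KO+vector replicate 2 (0.0075), OCLN without DU145KO+α2 replicate 2 (-0.0196) and CLDN4 without DU145KO replicate 3 (-0.0463) or DU145KO+α2 replicate 1 (-0.0163), both in DU145KO+α2 against DU145KO. The ranges over the 12 fits were -0.0645 to 0.0075, -0.0196 to 0.1180 and -0.0463 to 0.2237. JAM2 was not tested when 10 counts were required in each library. With annotated exon lengths, added after the data were seen, 17 of 30 median levels moved by more than 1 SD of the replicates. The causes of the changed calls were not tested.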
